A study of Homo sapiens with 12 samples.

Results

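L1MA1, L1MA2, L1MA3, L1MA4 and L1MA4A are 5 related subfamilies of LINE-1, the family of long interspersed repeats that copy themselves through an RNA. They were followed in RNA that crosslinked to tagged ZC3H18 proteins in A375 cells, an established human melanoma line. The elements were chosen by their subfamily name, and reads had to run in the direction of the element. Of 1509971 transposable elements listed in that direction in at least 1 library, 15970 carried 1 of the 5 names: 1857 L1MA1, 3394 L1MA2, 4196 L1MA3, 3800 L1MA4 and 2723 L1MA4A. The subfamilies had been picked for their total counts across the constructs in these same libraries, so their levels are described and not tested.

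LINE-1 elements end in an adenine-rich tail, and their coding strand is rich in adenine. New copies are most often cut short at the 5′ end, so most genomic copies hold the 3′ part of the element only. L1MA subfamilies are old primate and mammalian lineages that no longer move, and their copies are read mainly as passengers of other transcripts, in introns or between genes. ZC3H18 is a nuclear zinc-finger protein that links the cap-binding complex to the RNA surveillance machinery, which hands unprocessed nuclear RNA to the exosome for decay.

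Cells were transiently transfected with 1 of 4 V5-tagged constructs, and labelling with 4-thiouridine began 24 h later. The control construct was Clover, a fluorescent protein. Z18fl was full-length ZC3H18. Z18trunc lacked the C-terminal domain that recruits the surveillance machinery, and Z18truncZnFmut carried, in addition, mutated aromatic residues of the zinc finger. All cells thus carried a transfected V5-tagged protein, and all had been labelled, crosslinked with ultraviolet light and taken through V5 immunoprecipitation. Each construct had 3 libraries, 12 in all. The labels do not say that replicates came from separate cultures, so the errors measure the spread between these libraries, which may be technical. The files hold counts of repeat elements only, so neither the ZC3H18 constructs nor markers of A375 cells could be checked in them.

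The last 300 bases at the 3′ end of the elements were searched in the hg38 genome for AATAAA, the main polyadenylation signal, and for TTTTT, a run of 5 T. Over the 13156 elements long enough to give such an end, AATAAA was present on the element strand in 51.12% and on the opposite strand in 17.55%. TTTTT, which does not overlap with AATAAA, was present on the element strand in 20.53% and on the opposite strand in 90.55%. The same search found AATAAA on the element strand in 50.9% of L1PA7 to L1PA17 ends, 52.49% of L1MA5 to L1MA10 ends and 44.8% of L1MB ends, and TTTTT in 10.38%, 34.43% and 32.18%. These are younger and older LINE-1 subfamilies, with 31527, 12879 and 22495 ends searched.

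The 15970 elements had a median length of 948 bases, and the middle 50% lay between 413 and 1947 bases. The longest, an L1MA2, spanned 8017 bases. The median AT content was 66.1%, with 41.0% A and 23.9% T. Median divergence from the consensus of the subfamily, a measure of age, was 11.1% for L1MA1, 12% for L1MA2, 12.8% for L1MA3, 16.2% for L1MA4 and 16.4% for L1MA4A. By GENCODE release 44, 3786 elements lay in an intron read in the same direction, 118 overlapped exons of their strand by at least 50% of their length, 4584 lay opposite to a gene, and 7482 lay between genes. The intronic elements belonged to 1863 host genes, and 2743 of them shared their host gene with another such element, up to 19 in 1 gene. In addition, 7378 elements lay within 1000 bases of another element of the same subfamily and strand. Many elements therefore share a transcript or an original insertion and are not independent of each other.

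Counts per element were low. Only 1934 of the 15970 elements collected at least 10 counts over the 12 libraries, 246 were listed in all 12, and 9227 were listed in a single library. Between 67.9% and 77.4% of their counts came from uniquely mapping reads. The remainder had been divided among repeat copies by expectation maximization.

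Z18truncZnFmut replicate 3 stood apart from the other 11 libraries. It listed 11977 of the elements, against 4524 in Z18trunc replicate 3 and 1063 to 2814 in the other 10, and 6557 elements were listed in it alone. Of its counts on these elements, 45.0% fell on the elements with at least 10 counts over all libraries, against 77.9% to 92.4% elsewhere. In Z18trunc replicate 3 this share was 78.7%, and in its 2 sister libraries 92.4%. The summed values of Z18truncZnFmut are therefore also given without its replicate 3 where this moved them most. Aligned fragments, the measure of depth used here, ranged from 16683132 to 17673644 in Clover, and the other 9 libraries had 21285347 to 25686948.

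The summed level of the 5 subfamilies was higher in each of the ZC3H18 libraries than in each Clover library. Levels are given as CPM, the counts for each 1000000 aligned fragments. Clover libraries held 247, 199 and 199 CPM in replicates 1 to 3. Z18fl libraries held 535, 475 and 711 CPM. Z18trunc libraries held 810, 834 and 784 CPM, and Z18truncZnFmut libraries 604, 515 and 1442 CPM. The 3 Z18trunc libraries lay close together and above the 3 Z18fl libraries, whereas Z18truncZnFmut replicates 1 and 2 fell within the range of Z18fl and replicate 3 lay above every other library. In these bulk samples, a change in the number of cells and in the RNA of each cell, or in the amount of element RNA and in its recovery with the protein, cannot be told apart.

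**Figure D1:**
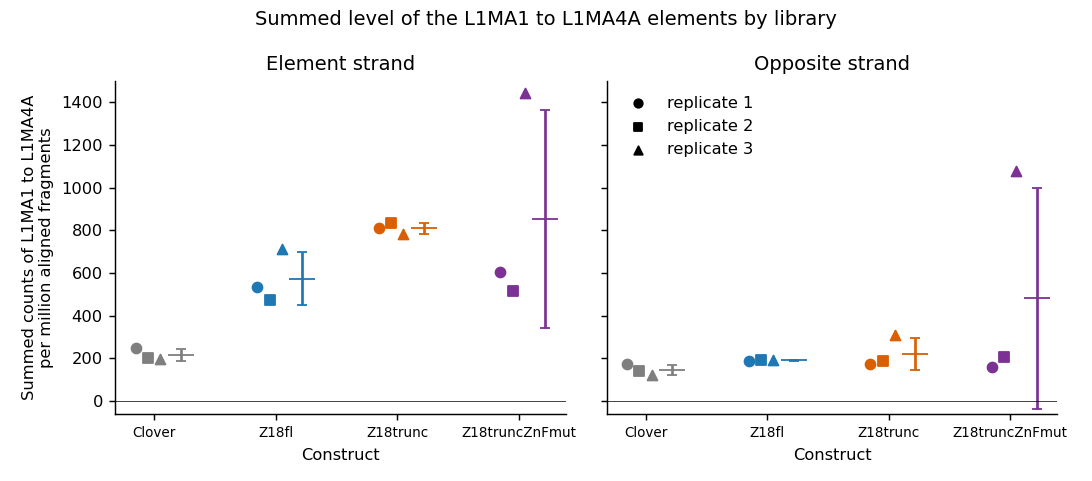
Summed level of the L1MA1 to L1MA4A elements, in CPM, in each of the 12 libraries. The left panel shows the element strand, and the right panel the opposite strand at any element of these subfamilies. Symbols mark replicates, and bars give the mean and SD of 3 libraries. On the element strand all ZC3H18 libraries lie above all Clover libraries, and Z18truncZnFmut replicate 3 is the highest library on both strands, at 1442 and 1080 CPM.

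The mean was 215 ± 27.7 CPM for Clover (SD, n = 3), 574 ± 123 CPM for Z18fl, 810 ± 25.2 CPM for Z18trunc and 854 ± 511 CPM for Z18truncZnFmut. The ratio of means to Clover was 2.67 for Z18fl, 3.76 for Z18trunc and 3.97 for Z18truncZnFmut. Without replicate 3 the Z18truncZnFmut mean was 560 CPM and its ratio to Clover 2.60, and the Z18trunc ratio without its own replicate 3 was 3.82. The ratio of Z18trunc to Z18fl was 1.41. The ratio of Z18truncZnFmut to Z18trunc was 1.05 with all libraries and 0.69 without Z18truncZnFmut replicate 3. As a share of all transposable element counts in the element direction, the 5 subfamilies made up 0.54% ± 0.041 with Clover, 1.10% ± 0.173 with Z18fl, 1.42% ± 0.066 with Z18trunc and 1.24% ± 0.314 with Z18truncZnFmut (SD, n = 3 each). On this scale, which takes out the general gain of repeat reads, the ratios to Clover were 2.02, 2.62 and 2.29, the last 1.97 without Z18truncZnFmut replicate 3.

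All 5 subfamilies lay higher in every ZC3H18 library than in any Clover library, but not by equal factors. L1MA2 had the largest ratio to Clover in each construct. It held 40.3, 33.1 and 30.8 CPM with Clover, 108, 102 and 151 CPM with Z18fl, 173, 176 and 169 CPM with Z18trunc, and 126, 106 and 319 CPM with Z18truncZnFmut. Its ratio of means to Clover was 3.46 for Z18fl, 4.97 for Z18trunc and 5.29 for Z18truncZnFmut, or 3.33 without replicate 3. L1MA4A had the smallest ratio with all libraries. It held 64.98, 54.4 and 58.7 CPM with Clover, 110, 97.8 and 145 CPM with Z18fl, 166, 178 and 153 CPM with Z18trunc, and 141, 119 and 267 CPM with Z18truncZnFmut. Its ratios were 1.98, 2.79 and 2.97, or 2.20 without Z18truncZnFmut replicate 3. The L1MA4A element in an intron of VOPP1 alone held 13.1 of the mean of 59.3 CPM in Clover, and 9.70 of 118 CPM in Z18fl. The low ratios of L1MA4A therefore depend in part on it, and ratios without it were not computed. No library of a ZC3H18 construct overlapped with the Clover libraries in either subfamily.

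With all libraries the other 3 subfamilies lay in between. For L1MA1, the least diverged, the ratio to Clover was 3.04 for Z18fl, 4.40 for Z18trunc and 5.09 for Z18truncZnFmut. For L1MA3, the most abundant, with 60.4 ± 9.08 CPM in Clover (SD, n = 3), the ratios were 3.06, 4.24 and 4.20. For L1MA4 they were 2.26, 3.18 and 3.49. Without Z18truncZnFmut replicate 3, the Z18truncZnFmut ratios were 3.04, 2.80 and 2.09, so that L1MA4 and not L1MA4A had the smallest ratio in that construct. The ratio of Z18trunc to Z18fl lay between 1.39 and 1.45 in all 5 subfamilies.

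**Figure D2:**
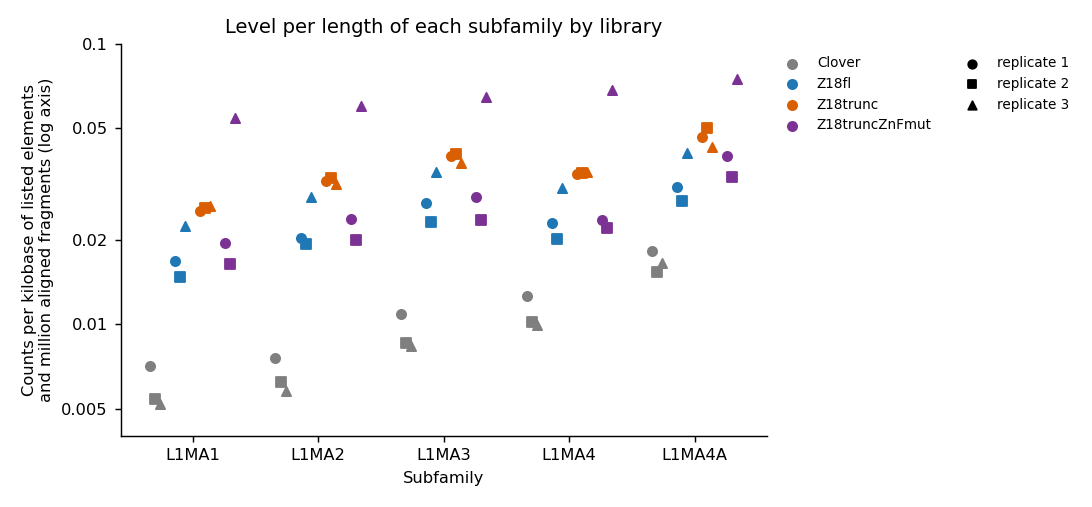
Level of each subfamily in CPM per kilobase of its listed elements (log axis), in each of the 12 libraries, coloured by construct. In Clover the 5 subfamilies rise from L1MA1 to L1MA4A, and within each subfamily every ZC3H18 library lies above every Clover library.

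Per length, the Clover libraries ranked the subfamilies from L1MA1 to L1MA4A. In CPM per kilobase of listed elements, the Clover level was 0.00591 ± 0.00105 for L1MA1, 0.00654 ± 0.000936 for L1MA2, 0.00928 ± 0.00139 for L1MA3, 0.0109 ± 0.00146 for L1MA4 and 0.0167 ± 0.0015 for L1MA4A (SD, n = 3 each). The ranges of L1MA1 and L1MA2 overlapped, as did those of L1MA3 and L1MA4, and L1MA4A lay above all others. The VOPP1 element alone held 13.1 of the 59.3 CPM of L1MA4A in Clover. The L1MA4A level thus rests in part on it, and levels per length without it were not computed. In Z18trunc the levels per length were 0.0260, 0.0325, 0.0394, 0.0347 and 0.0466, so that L1MA4 fell behind L1MA3. The length counted is that of every listed element, most of which had counts in few libraries, so these values are an average over many elements at 0.

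Reads on the opposite strand give a measure that the choice of subfamilies did not use. They were summed at any element of these subfamilies, whether or not it was listed in the element direction. They came to 172, 142 and 122 CPM with Clover, 189, 191 and 193 CPM with Z18fl, 171, 186 and 307 CPM with Z18trunc, and 159, 208 and 1080 CPM with Z18truncZnFmut. The Z18fl libraries lay just above the Clover libraries, by 0.41 on the log2 scale, with an exact permutation p = 0.1 (two-sided, 3 against 3). This is the smallest p-value that 3 against 3 libraries allow, and after Benjamini-Hochberg adjustment over 20 such tests it was 0.222. With the opposite-strand counts of all transposable elements as the denominator, the difference was 0.086 on the log2 scale and the exact permutation p was 0.6. For the other 2 constructs the libraries overlapped with Clover and the exact permutation p was 0.2, adjusted to 0.308. Of all counts on either strand at any element of these subfamilies, 59.0%, 58.4% and 62.0% ran in the element direction in the Clover libraries. The share was 73.9%, 71.4% and 78.7% with Z18fl, 82.6%, 81.7% and 71.9% with Z18trunc, and 79.2%, 71.2% and 57.2% with Z18truncZnFmut. The 2 libraries with the most opposite-strand reads, Z18truncZnFmut replicate 3 and Z18trunc replicate 3, were those that listed the most elements, and the part of this in their element-strand levels was not tested.

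Element by element, low counts limited what could be fitted. Of the 15970 elements, the filter on low counts left 153, 215 and 119 in the comparisons of Z18fl, Z18trunc and Z18truncZnFmut with Clover. It left 360 in the comparison of Z18trunc with Z18fl and 319 in that of the 2 truncated constructs. Elements that pass only through the group where they are high had to differ, so the counts below describe the elements that were measurable and not the subfamilies. The fit was edgeR's quasi-likelihood test over all elements of the table, and a call is a Benjamini-Hochberg adjusted p under 0.05. For Z18fl against Clover, 107 of the 153 elements were called higher, against 28.3% of all 12098 elements tested, and 8 were called lower, against 24.6%. For Z18trunc against Clover, 167 of 215 were called higher, against 22.5% of all 13204, and 2 lower, against 13.4%. For Z18truncZnFmut against Clover, 75 of 119 were called higher, against 12.3% of all 10152, and none lower by edgeR or DESeq2, against 4.83%, with 2 lower at an unadjusted p under 0.05 in edgeR. Since the subfamilies were chosen on these contrasts, nothing is read from these shares.

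Their median log2 fold change was 1.63 for Z18fl, 2.21 for Z18trunc and 1.54 for Z18truncZnFmut against Clover, beside 0.01, -0.03 and -0.05 over all elements tested. With the 1 element for Z18fl and the 6 for Z18trunc that were at 0 in every Clover library set to their bound, these medians did not move. The values are relative to TMM scaling. With aligned fragments as library sizes, the median of all elements was 0.48, 0.40 and 0.24 in the 3 comparisons, and that of the L1MA elements 2.04, 2.78 and 2.05.

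Against Z18fl, Z18trunc had 37 of 360 elements called higher, against 2.62% of all 19413, and 5 called lower, against 3.13%. The median log2 fold change was 0.42, beside 0.01 over all elements. Leaving out Z18fl replicate 1 or 2, or Z18trunc replicate 1 or 2, brought the higher calls to 5, 3, 5 and 11. Between Z18truncZnFmut and Z18trunc, no element of 319 was called higher by edgeR or DESeq2, against 0.368% of all 16833, and 5 were called lower, against 0.351%. At an unadjusted p under 0.05 in edgeR, 9 were higher and 54 lower. The median was -0.33, beside 0.01. Leaving out Z18trunc replicate 1, 2 or 3, or Z18truncZnFmut replicate 2, left none of the 5, and leaving out Z18truncZnFmut replicate 1 left 3.

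**Figure D3:**
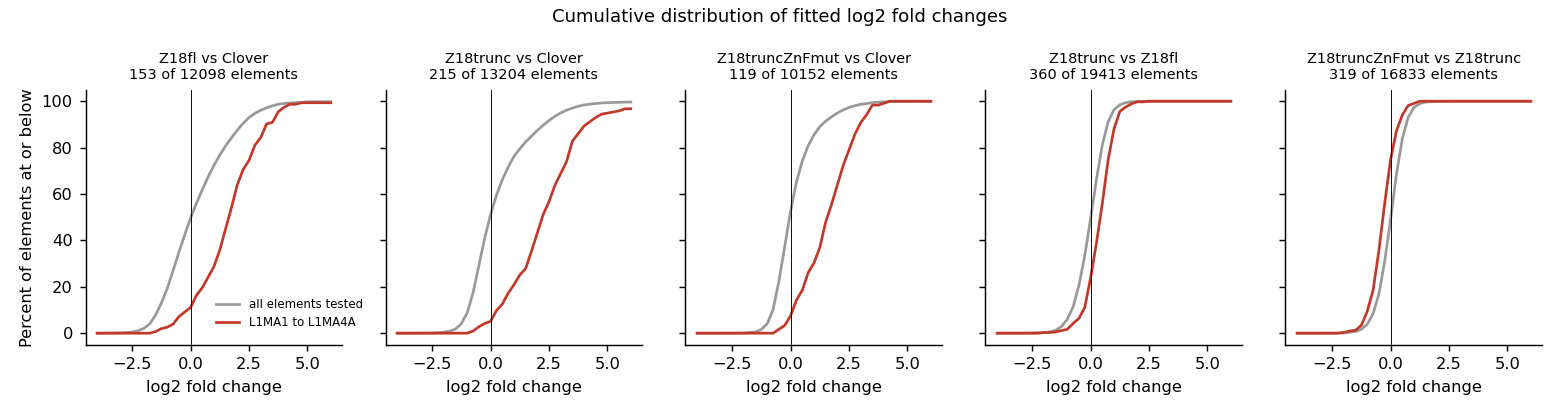
Cumulative percent of elements at or below each fitted log2 fold change, for the L1MA1 to L1MA4A elements that passed the filter (red) and for all transposable elements tested (grey), in the 5 comparisons. The red curves lie to the right of the grey in the 3 comparisons with Clover, with medians of 1.63, 2.21 and 1.54, by 0.42 for Z18trunc against Z18fl, and to the left, at -0.33, for Z18truncZnFmut against Z18trunc.

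Levels differed with the gene context of the element. Exonic elements, which share reads with a mature messenger RNA, held 22.36, 15.96 and 20.03 CPM with Clover, 21.0, 20.9 and 24.6 CPM with Z18fl, 25.3, 28.9 and 21.7 CPM with Z18trunc, and 25.4, 23.4 and 27.9 CPM with Z18truncZnFmut. The ratio of their means to Clover was 1.14, 1.30 and 1.32. The elements in POLR3C and ZNF441 alone held 6.75 and 5.04 of the exonic mean of 19.4 CPM in Clover. In Z18fl they held 3.97 and 3.92 of 22.2 CPM, so the exonic ratios rest in large part on these elements. Intronic elements held 117, 100 and 104 CPM with Clover, 320, 285 and 426 CPM with Z18fl, 497, 514 and 421 CPM with Z18trunc, and 347, 290 and 487 CPM with Z18truncZnFmut. Their ratios to Clover were 3.21, 4.46 and 3.50. The exonic Z18fl and Z18trunc libraries overlapped with Clover, and the 3 exonic Z18truncZnFmut libraries lay above it. The intronic groups did not overlap between Clover and any construct.

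Elements between genes lay at 65.2 ± 11.2 CPM in Clover and 2.60, 3.78 and 4.90 times higher in Z18fl, Z18trunc and Z18truncZnFmut. Elements opposite to a gene lay at 23.5 ± 6.18 CPM in Clover and 1.65, 2.59 and 5.72 times higher. Z18truncZnFmut replicate 3 alone held 615 CPM between genes and 312 CPM opposite to genes. Without it, the Z18truncZnFmut ratios were 2.98 for introns, 2.63 between genes, 1.92 opposite to genes and 1.26 for exons. Without Z18trunc replicate 3, the Z18trunc ratios were 4.73, 3.67, 2.15 and 1.39. In the fit, 71 of 96 intronic and 2 of 9 exonic elements were called higher in Z18fl, beside 28.3% of all elements tested. For Z18trunc they were 116 of 136 and 2 of 9, beside 22.5%. As above, nothing is read from these shares. The median log2 fold change of the exonic elements was 0.04 for Z18fl, 0.20 for Z18trunc and 0.10 for Z18truncZnFmut, where 6 were tested.

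**Figure D4:**
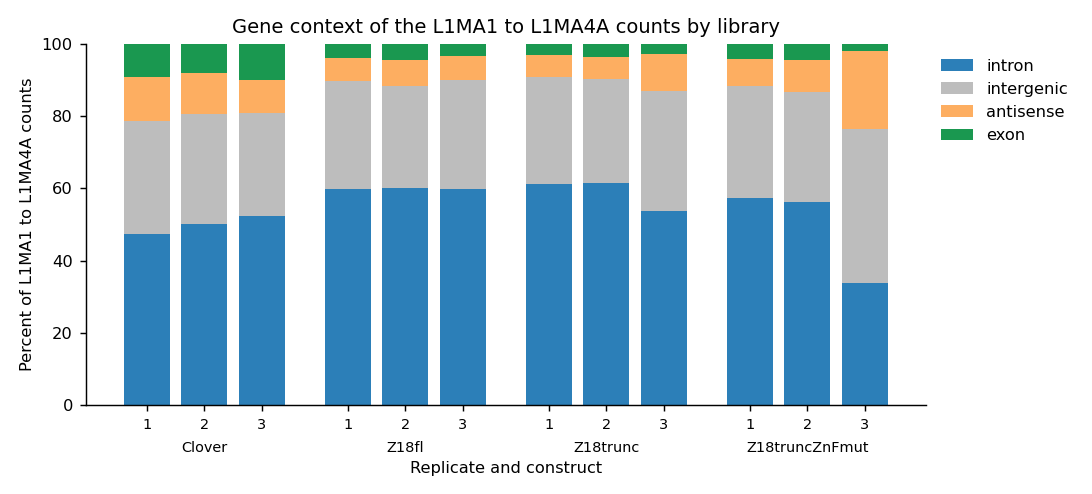
Percent of the L1MA1 to L1MA4A counts of each library that fell on elements in introns, between genes, opposite to a gene and in exons. The intronic part runs from 47.3% to 52.3% in Clover, from 59.8% to 59.98% in Z18fl and from 53.7% to 61.6% in Z18trunc, and is 33.8% in Z18truncZnFmut replicate 3.

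Introns took 49.9% ± 2.55 of the counts of these elements with Clover, 59.9% ± 0.083 with Z18fl, 58.9% ± 4.51 with Z18trunc and 49.2% ± 13.3 with Z18truncZnFmut (SD, n = 3 each). Every Z18fl and Z18trunc library lay above every Clover library, by 9.95 and 8.92 percentage points of the means, with an exact permutation p = 0.1 for each (two-sided), adjusted to 0.222. Z18truncZnFmut overlapped with Clover, at a difference of -0.77 points (exact permutation p = 1). Without Z18truncZnFmut replicate 3 the difference was 6.93 points. The shares are taken from the counts that served to choose the subfamilies, although the choice did not look at gene context.

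Longer elements took more of the counts in the ZC3H18 libraries. Elements of at least 1000 bases held 68.1% ± 0.750 of the counts with Clover, 75.1% ± 1.42 with Z18fl, 77.1% ± 2.15 with Z18trunc and 75.02% ± 2.60 with Z18truncZnFmut (SD, n = 3 each). No ZC3H18 library overlapped with Clover, and the exact permutation p was 0.1 for each construct, adjusted to 0.222. These shares too come from the counts that served to choose the subfamilies, although the choice did not look at element length. Elements of 2000 bases or more were 2.95, 4.41 and 4.42 times higher than in Clover in the 3 constructs, and elements under 200 bases 1.78, 2.26 and 2.85 times. Without Z18truncZnFmut replicate 3 the last pair was 3.05 and 1.79.

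Elements with 65% to under 70% adenine and thymine also took more of the counts. Weighted by counts, the AT content came to 61.8% ± 0.286 with Clover, 62.6% ± 0.144 with Z18fl, 62.9% ± 0.106 with Z18trunc and 63.0% ± 0.920 with Z18truncZnFmut. These values lay below the median of 66.1% over the elements themselves in all 4 groups. Each construct was separate from Clover, by 0.78, 1.04 and 1.11 points (exact permutation p = 0.1, adjusted to 0.222). The last difference was 0.58 points without Z18truncZnFmut replicate 3. The weights are the counts that served to choose the subfamilies, although the choice did not look at AT content. Elements with 65% to under 70% AT were 3.04, 4.53 and 5.12 times higher than in Clover, and those under 60% AT 2.15, 2.86 and 2.79 times. The last of each was 2.95 and 2.27 without Z18truncZnFmut replicate 3. Elements with 70% AT or more had ratios of 2.18, 3.09 and 4.56, the last 1.99 without that library. Their mean share of the counts was 2.52% with Clover, 2.09% with Z18fl, 2.10% with Z18trunc and 2.54% with Z18truncZnFmut. The Clover libraries ranged from 1.86% to 3.01%. Z18truncZnFmut replicates 1 and 2 held 1.77% and 2.16%, both below the Clover mean. The Z18truncZnFmut mean lay near that of Clover only through Z18truncZnFmut replicate 3. Elements diverged by 20% or more from their consensus had lower ratios, 1.84, 2.46 and 2.65, than those diverged by 10% to under 15%, at 2.999, 4.29 and 4.47. Here the last of each was 1.97 and 2.88 without that library. The VOPP1 element, diverged by 21%, held 13.1 of the 35.9 CPM of the most diverged elements in Clover. It held 9.70 of their 66.1 CPM in Z18fl and 10.9 of 88.2 CPM in Z18trunc, so their lower ratios depend in part on it. With 50.9% AT it also lay among the elements under 60% AT. Length, AT content, divergence and gene context are linked across elements, and their separate parts were not tested.

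Younger and older LINE-1 subfamilies were set beside these elements. The L1PB subfamilies were not compared. L1PA7 to L1PA17, a younger set, were 2.32, 2.89 and 2.78 times higher than in Clover in Z18fl, Z18trunc and Z18truncZnFmut. L1MA5 to L1MA10, the next older, were 2.14, 2.86 and 3.65 times higher, and L1MB, older still, 1.78, 1.92 and 2.28 times. Without Z18truncZnFmut replicate 3 the last of each was 2.11, 2.01 and 1.52, beside 2.60 for L1MA1 to L1MA4A. These ratios share the Clover libraries and the total counts that chose the subfamilies, so their order is a description. Gene context and AT content were compared within libraries. The intron share of the L1MA1 to L1MA4A counts exceeded that of L1PA7 to L1PA17 by 5.82 points on average, in 11 of 12 libraries (two-sided exact permutation of signs, p = 0.00146, adjusted 0.00146 over 6 tests). It exceeded that of L1MA5 to L1MA10 by 5.53 points and that of L1MB by 5.36 points, in 12 of 12 libraries each (exact permutation p = 0.000488, adjusted 0.000732). The AT content weighted by counts differed by 3.54 points from L1PA7 to L1PA17, upwards, and by -1.77 points from L1MA5 to L1MA10, in 12 of 12 libraries each (exact permutation p = 0.000488, adjusted 0.000732). It was 0.84 points above L1MB, in 11 of 12 libraries (exact permutation p = 0.00146). The p-values speak only of the mean difference across these 12 libraries, taken from all 4 constructs. The libraries share the same elements and annotation, so they are not independent tests of a difference between the sets. The counts are also those that chose the subfamilies, and nothing about the constructs is read from these p-values. The part that the annotation and sequence of the listed elements have in these differences was not tested.

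Single elements were named by rule and, since the rule demanded that on average at least 90% of the fragments alignable to an element be assigned to it, over all libraries for a level and in the higher group for a change, it named few and mostly shallow ones. The 8 named for their level were L1MA1 elements in ERCC1, a DNA repair gene, in DANT2, a long noncoding RNA of the X chromosome, and in NLRP1, an inflammasome sensor, an L1MA2 in FAM241A, an L1MA3 in TJP1, which encodes a tight junction protein, L1MA4 elements in FIRRE, a long noncoding RNA of the X chromosome, and between genes at chr4:91968778-91970410, and an L1MA4A in USP48, a deubiquitinase gene. The 1 named for its change was an L1MA4A in an intron of KAT6A, a histone acetyltransferase gene. The elements named in the next paragraphs without this condition were chosen after their values were seen: the 12 highest by mean level, the highest L1MA1 outside chromosome 8, and those with the largest change among called elements whose groups did not overlap in unscaled counts and whose higher group had a mean of at least 30 counts. All values are deposited total counts, not scaled to depth, unless CPM is written, and log2 fold changes are edgeR's, with SE.

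In the ERCC1 element (chr19:45413040-45413274) the counts were 16, 3 and 12 with Clover, 15, 18 and 22 with Z18fl, 21, 23 and 19 with Z18trunc and 16, 18 and 14 with Z18truncZnFmut. The DANT2 element held 3, 3 and 0 counts with Clover, 12, 10 and 10 with Z18fl, 29, 19 and 14 with Z18trunc and 11.4, 10 and 16 with Z18truncZnFmut. In these unscaled counts, Clover replicates 2 and 3 of ERCC1 lay below all other libraries and replicate 1 among them. In DANT2 all Clover libraries lay below. Scaled to depth, ERCC1 had 0.60 ± 0.40 CPM with Clover and 0.76 ± 0.11, 0.88 ± 0.07 and 0.70 ± 0.14 CPM in the 3 constructs (SD, n = 3). Its log2 fold changes over Clover were -0.02 ± 0.46, 0.20 ± 0.45 and 0.01 ± 0.51, and none was called. The exonic USP48 element (chr1:21686116-21686553) was at 0 in the 3 Clover libraries and held 5, 5 and 6 counts with Z18fl, 15, 6 and 8 with Z18trunc and 8, 8 and 7 with Z18truncZnFmut. Against a floor of 3 counts over the Clover group, this was at least 3.82-fold, 6.94-fold and 5.66-fold higher. The KAT6A element (chr8:42025508-42029559) held 2, 7 and 4 counts with Clover, 40, 38 and 82 with Z18fl, 113, 96 and 79 with Z18trunc and 80, 40 and 54 with Z18truncZnFmut. Its log2 fold change over Clover was 2.72 ± 0.43, 3.61 ± 0.36 and 3.05 ± 0.43, and the Clover libraries lay far below all others.

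Several of the highest elements were not called higher in any comparison with Clover. The L1MA4A in an intron of VOPP1, the highest of all by mean level, held 215, 217 and 243 counts with Clover, 209, 216 and 274 with Z18fl, 281, 293 and 205 with Z18trunc and 319, 287 and 291 with Z18truncZnFmut. Scaled to aligned fragments, this was 13.1 ± 0.55 CPM with Clover, 9.70 ± 0.86 with Z18fl, 10.9 ± 1.91 with Z18trunc and 12.9 ± 0.78 with Z18truncZnFmut (SD, n = 3), so the Z18fl libraries lay below Clover. It was called lower in Z18fl and in Z18trunc, by log2 fold changes of -0.80 ± 0.13 and -0.62 ± 0.14. The L1MA4 that overlaps an exon of POLR3C, which encodes an RNA polymerase III subunit, held 108, 111 and 129 counts with Clover, 100, 89 and 95 with Z18fl, 118, 121 and 100 with Z18trunc and 132, 132 and 124 with Z18truncZnFmut. In CPM it was 6.75 ± 0.47 with Clover, 3.97 ± 0.32 with Z18fl, 4.73 ± 0.44 with Z18trunc and 5.59 ± 0.55 with Z18truncZnFmut, highest with Clover. It was called lower in the same 2 constructs, at -1.13 ± 0.17 and -0.86 ± 0.16, and was the only element called lower in Z18fl whose Clover counts averaged at least 30 and did not overlap, unscaled, with those of Z18fl. The exonic L1MA4A of ZNF441, a zinc-finger gene, lay at 5.04 ± 1.10 CPM in Clover and at 3.92 ± 0.73, 4.96 ± 1.88 and 4.89 ± 0.59 CPM in the 3 constructs, all overlapping, and was called lower in Z18fl (log2 fold change -0.72 ± 0.19). The L1MA3 in CLNS1A, which encodes a subunit of the methylosome, had 2.25 ± 0.91 CPM in Clover and 3.26 ± 0.35, 4.26 ± 0.30 and 3.98 ± 0.42 CPM in the others, with log2 fold changes of 0.18, 0.58 and 0.63. None of these was called, although in CPM both truncated constructs lay above every Clover library. An intergenic L1MA3 at chr1:93374061-93377098 had 62, 53 and 64 counts with Clover and 67, 47 and 84 with Z18fl, but 140, 148 and 114 with Z18trunc and 127, 86 and 112 with Z18truncZnFmut. For the last, in counts, Z18fl overlapped with Clover and both truncated constructs lay above. The fit, relative to TMM scaling, called it lower in Z18fl, at -0.71 ± 0.21.

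The other high elements were higher in all 3 constructs. The longest of them, a 6096-base L1MA1 in an intron of the noncoding RNA ZFPM2-AS1 (chr8:105815923-105822018), held 44, 28 and 30 counts with Clover, 174, 137 and 316 with Z18fl, 374, 423 and 327 with Z18trunc and 284, 230 and 301 with Z18truncZnFmut. Its log2 fold change over Clover was 1.74 ± 0.24, 2.63 ± 0.18 and 2.36 ± 0.21. The L1MA4A in the noncoding RNA LINC02241 (chr5:20632983-20637327) held 73, 89 and 93 counts with Clover, 217, 190 and 285 with Z18fl, 362, 362 and 236 with Z18trunc and 322, 178 and 281 with Z18truncZnFmut. Its fold changes were smaller, at 0.58 ± 0.16, 1.08 ± 0.17 and 0.95 ± 0.19 on the log2 scale. In both elements the Clover libraries lay below all others.

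The L1MA3 in GBE1, which encodes the glycogen branching enzyme, held 27, 19 and 27 counts with Clover, 107, 92 and 151 with Z18fl, 188, 207 and 153 with Z18trunc and 146, 94 and 139 with Z18truncZnFmut. Its log2 fold changes were 1.40 ± 0.22, 2.08 ± 0.20 and 1.72 ± 0.24. The L1MA2 in SEM1, which encodes a proteasome subunit, held 16, 15 and 24 counts with Clover, 59, 55 and 125 with Z18fl, 153, 151 and 126 with Z18trunc and 101, 99 and 95 with Z18truncZnFmut. The 3 Z18trunc libraries of SEM1 lay above the 3 Z18truncZnFmut libraries. The L1MA3 in NUS1, needed for dolichol synthesis, showed log2 fold changes of 1.41 ± 0.26, 2.15 ± 0.22 and 1.76 ± 0.29. The longer DANT2 element (chrX:115931094-115936482), just upstream of the one named by rule, held 6, 27 and 14 counts with Clover, 51, 52 and 116 with Z18fl, 150, 152 and 89 with Z18trunc and 81.6, 70 and 52 with Z18truncZnFmut. Its Clover libraries lay below all others and its log2 fold changes were 1.33 ± 0.38, 2.21 ± 0.33 and 1.47 ± 0.36.

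**Figure D5:**
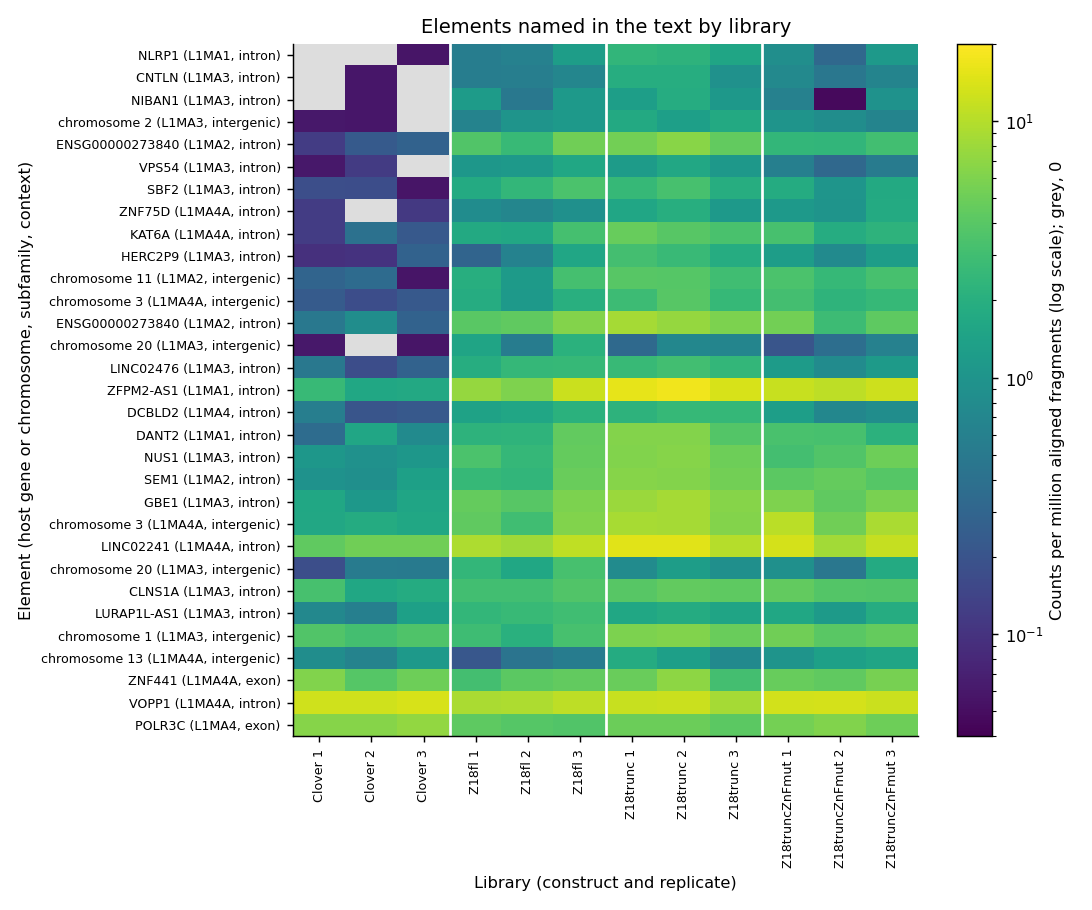
Level in CPM (colour, log scale, grey for 0) of single elements in each of the 12 libraries, ordered by the ratio of Z18trunc to Clover. The NLRP1, CNTLN and NIBAN1 elements at the top hold at most 1 count in each Clover library, and ZNF441, VOPP1 and POLR3C at the bottom have similar or higher levels in Clover.

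Some of these elements lie side by side. The 2 L1MA2 elements of ENSG00000273840, an unnamed gene of chromosome 21, at chr21:10561529-10563875 and chr21:10564534-10566694, were higher in all 3 constructs than in Clover. The first held 8, 14.4 and 5 counts with Clover, 94.2, 101 and 162 with Z18fl, 205, 180 and 138 with Z18trunc and 128, 60.9 and 103 with Z18truncZnFmut. The second held 2, 4 and 5 counts with Clover, 86, 60 and 134 with Z18fl, 126, 162 and 107 with Z18trunc and 59.6, 51 and 74 with Z18truncZnFmut. Their log2 fold changes over Clover were 2.85 ± 0.31, 3.43 ± 0.28 and 2.75 ± 0.34 for the first and 3.77 ± 0.38, 4.30 ± 0.33 and 3.40 ± 0.41 for the second. The second was 1 of the 5 elements called lower in Z18truncZnFmut than in Z18trunc, at -0.87 ± 0.20. On chromosome 3, the L1MA4A elements at chr3:104265629-104268366 and chr3:104268350-104270495 had log2 fold changes of 2.57 ± 0.42, 3.50 ± 0.37 and 3.40 ± 0.39 and of 1.03 ± 0.24, 1.85 ± 0.19 and 2.05 ± 0.24. These 2 annotations overlap at their ends.

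The largest differences from Clover were at elements with almost no Clover counts, where the fitted fold change depends on the prior count and the ratio of counts per aligned fragment is given with its exact 95% interval. This interval covers counting error only, and reads amplified without molecular identifiers are not independent molecules. An L1MA3 in VPS54, which encodes a subunit of a vesicle tethering complex, held 1, 2 and 0 counts with Clover, 25, 26 and 42 with Z18fl, 29, 40 and 26 with Z18trunc and 14, 7 and 13 with Z18truncZnFmut. Its ratio to Clover was 22.2 (7.37 to 110) for Z18fl. An L1MA1 in an intron of NLRP1 (chr17:5565641-5568994) held 0, 0 and 1 counts with Clover, 13, 14 and 33 with Z18fl, 57, 54 and 37 with Z18trunc and 21, 7 and 27 with Z18truncZnFmut, with a ratio of 106 (18.8 to 4227) for Z18trunc. L1MA3 elements in CNTLN, which encodes a centrosome protein, and in NIBAN1 held 1 count each in all Clover libraries together and 115 and 102 counts in Z18trunc. Their ratios were 82.6 (14.5 to 3290) and 73.3 (12.9 to 2922). In all 4 elements every library of the 3 constructs held at least as many counts as the highest Clover library. Such elements also lay between genes. An L1MA3 at chr20:40974071-40975862 held 1, 0 and 1 counts with Clover and 35, 12.5 and 55 with Z18fl. Its ratio for Z18fl was 36.9 (9.96 to 309), above that of VPS54. An L1MA3 at chr2:139566974-139568875 held 1, 1 and 0 counts with Clover and 41, 32 and 41 with Z18trunc. Its ratio for Z18trunc was 40.9 (11.1 to 342).

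Other elements held a few more Clover counts. The L1MA3 in SBF2, a gene of the myotubularin family, held 3, 3 and 1 counts with Clover, 41, 56 and 88 with Z18fl, 61, 79 and 46 with Z18trunc and 44, 22 and 42 with Z18truncZnFmut. Its log2 fold changes were 3.81 ± 0.45, 3.85 ± 0.44 and 3.23 ± 0.53. The L1MA4A in ZNF75D, a zinc-finger gene of the X chromosome, had 2, 0 and 2 counts in Clover and 27, 21 and 43 in Z18truncZnFmut, at a log2 fold change of 3.77 ± 0.64. The longest element named, a 6617-base intergenic L1MA2 at chr11:125810676-125817292, had 5, 6 and 1 counts in Clover and 83, 55 and 79 in Z18truncZnFmut, at 3.49 ± 0.41. In each of these elements the Clover libraries lay below all libraries of the construct.

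Between the full-length and the truncated protein, elements differed in both directions. An intergenic L1MA4A at chr13:82591647-82594841 held 14, 11 and 20 counts with Clover, 5, 10 and 14 with Z18fl, 44, 32 and 18 with Z18trunc and 24, 29 and 37 with Z18truncZnFmut. It was 1.61 ± 0.38 higher on the log2 scale in Z18trunc than in Z18fl. Its unscaled Z18fl counts overlapped with those of Clover, but the fit called it lower in Z18fl than in Clover, at -1.47 ± 0.44. In Z18trunc against Clover it was not called, at 0.23 ± 0.37. The means were 0.87 ± 0.25 CPM with Clover, 0.40 ± 0.17 with Z18fl and 1.31 ± 0.55 with Z18trunc (SD, n = 3). The L1MA3 in HERC2P9, a pseudogene with near-identical relatives, was 1.54 ± 0.33 higher in Z18trunc than in Z18fl. On average only 40.3% of the fragments that could align to it were assigned to it, so its counts are uncertain. In the other direction, the adjacent intergenic L1MA3 elements at chr20:40974071-40975862 and chr20:40976174-40981016 were lower in Z18trunc than in Z18fl, with log2 fold changes of -1.36 ± 0.38 and -1.38 ± 0.26. The longer of them held 3, 9 and 9 counts with Clover, 57, 37 and 84.6 with Z18fl, 19, 31 and 21 with Z18trunc and 22, 10 and 43 with Z18truncZnFmut. The L1MA3 in the noncoding RNA LURAP1L-AS1 was also lower, with 57, 60 and 77 counts in Z18fl and 39, 44 and 36 in Z18trunc (log2 fold change -0.77 ± 0.21). The Z18fl and Z18trunc counts overlapped at the shorter chromosome 20 element and did not overlap at the longer one, at LURAP1L-AS1 or at the L1MA4A of chromosome 13.

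Between Z18trunc and Z18truncZnFmut, 4 of the 5 elements called lower had groups that did not overlap in counts. The L1MA3 in the noncoding RNA LINC02476 held 63, 74 and 58 counts with Z18trunc and 29, 17 and 28.4 with Z18truncZnFmut, beside 8, 3 and 5 with Clover and 44, 57 and 66 with Z18fl. The L1MA4 in DCBLD2, which encodes a membrane receptor, held 53.2, 62.2 and 60 counts with Z18trunc and 31.6, 15.1 and 20.3 with Z18truncZnFmut, beside 9.5, 3.5 and 4 with Clover and 33, 36 and 55 with Z18fl. Both had a log2 fold change of -1.19, with SE 0.26 and 0.28. In both, the Z18truncZnFmut libraries still lay above all Clover libraries.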

How the data were processed

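Anti-V5 PAR-CLIP libraries of 4 constructs were analysed, 3 libraries each. The authors trimmed the reads with cutadapt 4.6, as the submitters' processing notes state, and ran SQuIRE against hg38, which assigns reads to single repeat elements on each strand, 1 table per library. Unique reads and aligned fragments were deposited as counts. The deposited totals, adding to the unique reads a portion of the multimapping reads found by expectation maximization, are expected counts. The deposited score gives what percent of the fragments alignable to the element the total makes up. The authors' FPKM values were recomputed from the totals, with a largest gap of 0.00946, and not used further.

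Totals on the element strand were rounded and fitted over all elements of 6 repeat classes with edgeR 4.0.16 in R 4.3.3 (TMM, filterByExpr with minimum count 10 and minimum total 15, quasi-likelihood test, Benjamini-Hochberg adjustment), using the 6 libraries of the groups compared, in 5 comparisons. The study's methods name DESeq2, and DESeq2 1.42.0 was run as an alternative. CPM was computed against aligned fragments. For shares and opposite-strand levels, two-sided exact permutation tests were run in Python 3.11.15 with scipy 1.17.1. GENCODE release 44 gave gene context: exon if at least 50% of the element lay in exons of its strand, intron if its middle lay elsewhere in a gene of its strand, otherwise opposite to a gene or intergenic. Elements were named as the 8 highest with a mean score of at least 90, and, per comparison with Clover, the 4 largest rises and 2 largest falls (2 and 2 in the other comparisons) among called elements without overlap of unscaled counts, whose higher group had a mean count of at least 30 and a mean score of at least 90. The main edgeR fit of the 5 comparisons was also run on simulated counts with known changes. These held fewer changed elements than were called in the comparisons with Clover. The alternative settings, DESeq2 included, were not simulated. The subfamilies, lists and rules were chosen with earlier results of these data known. Positions are counted from 1. The sequences of single elements are not reported here.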

Additional observations from a re-analysis of the deposited data

How the results depend on the processing

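The counts of called elements were the values that moved most with the processing, and the cause was not tested except where the setting itself tests more or fewer elements. Without the filter on low counts, which tested every listed element, higher calls against Clover were 185 for Z18fl, 286 for Z18trunc and 115 for Z18truncZnFmut, lower calls were 1 for Z18fl and 0 for Z18trunc, and Z18trunc against Z18fl had 8 higher and 3 lower. The median log2 fold change was then 1.73 for Z18trunc against Clover and 1.03 against Z18fl, while Z18truncZnFmut against Z18trunc had 1.84, where it changed sign together with the median of all elements. Z18truncZnFmut against Z18trunc had 1 lower call. With 1 fit over all 12 libraries, higher calls against Clover were 211, 245 and 192, lower calls were 4 for Z18trunc and 2 for Z18truncZnFmut, Z18trunc against Z18fl had 6 higher and 2 lower, and Z18truncZnFmut against Z18trunc had 2 lower. With library sizes from aligned fragments, lower calls were 5 for Z18fl and 1 for Z18trunc against Clover, Z18trunc against Z18fl had 2, Z18truncZnFmut against Z18trunc had 10, higher calls for Z18truncZnFmut against Clover were 115, and the medians for Z18fl and Z18trunc against Clover were 2.04 and 2.78. DESeq2 called 23 higher and 2 lower for Z18trunc against Z18fl. With unique reads, the median for Z18trunc against Clover was 2.37, and Z18truncZnFmut against Z18trunc had 1 higher and 9 lower calls.

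The numbers of the replicates did not pair the samples: same-numbered libraries deviated together with correlations between -0.09 and 0.0402. With the replicate block, Z18trunc against Z18fl had 23 higher and 2 lower calls and Z18truncZnFmut against Z18trunc had 0 lower, and no other count moved by more than 1.5 times.

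Leaving out each library in turn gave 77 to 154, 117 to 238 and 55 to 104 higher calls against Clover and 5 to 9, 2 to 3 and 0 lower calls for Z18fl, Z18trunc and Z18truncZnFmut, with medians of 1.53 to 1.91, 2.24 to 2.47 and 1.58 to 1.91. Z18trunc against Z18fl had 3 to 45 higher and 2 to 3 lower calls, and Z18truncZnFmut against Z18trunc 0 to 4 lower.

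On the log2 scale the summed level of Z18fl, Z18trunc and Z18truncZnFmut over Clover was 1.40, 1.92 and 1.84. With all transposable element counts as the denominator it was 1.01, 1.39 and 1.17, and with reads on either strand 1.08 and 1.53 for Z18fl and Z18trunc. Z18truncZnFmut against Z18trunc had no stable sign: -0.08 as reported, 0.12 with either strand, and -0.54 to 0.21 with 1 library left out.

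Over elements with at least 10 counts only, the intron share differed by 3.24 points for Z18truncZnFmut against Clover and by 0.88 points for Z18trunc against Z18fl, both with the opposite sign, and for Z18truncZnFmut against Z18trunc the AT content differed by -0.28 and the share of elements of at least 1000 bases by 0.058 points, again with the sign turned. With 1 library left out, the intron share ranged from -4.92 to 6.93 points and from -2.41 to 1.57 points in the first 2 of these comparisons, and the AT content from -0.46 to 0.39 points in the last. The opposite-strand level ranged from -0.10 to 0.33 for Z18trunc against Z18fl and from -0.24 to 1.15 for Z18truncZnFmut against Z18trunc. In these comparisons the sign turned without Z18trunc replicate 3 or Z18truncZnFmut replicate 3, and for the intron share of Z18truncZnFmut against Clover also without Clover replicate 3. For the summed level of Z18truncZnFmut against Z18trunc it turned without Z18truncZnFmut replicate 1 or 2. Low depth limits all values of single elements.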
